A study of Homo sapiens with 6 samples.

Results

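The genes described here are 43 mesenchymal and extracellular matrix genes, taken by symbol from a deposited table of 59715 gene IDs, and each symbol matched 1 ID. They comprise transcription factors of the epithelial-mesenchymal transition (EMT), mesenchymal surface and contractile genes, collagens, laminins, proteoglycans, matrix glycoproteins, proteases with an inhibitor, and enzymes that modify or crosslink collagen. The cells were HCT116, a human line established from a colorectal carcinoma, and poly(A) RNA was read in 3 libraries of MLL4-knockout cells (MLL4KO) and 3 libraries of wild-type cells (MLL4WT), with no treatment of either genotype named in the labels. MLL4 is a histone H3 lysine 4 methyltransferase of enhancers, and the comparison asks how transcripts differ once it is lost. The labels do not say how many knockout clones were used, where the gene was cut or whether libraries came from separate cultures, so the p-values measure the spread between these samples.

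Library totals ranged from 14775580 to 19736751 estimated counts in MLL4KO and from 6829400 to 17828774 in MLL4WT, with the low end in MLL4WT replicate 1, which also stood apart from the other MLL4WT libraries in its counts (chi-square per degree of freedom 7.98 and 7.88, against 2.09 between replicates 2 and 3). Without that library 9 members rose and 8 fell, against 9 and 9 with it. KMT2D, the gene usually meant by MLL4, was at 229.5, 243 and 225 CPM in the MLL4KO libraries and at 239.7, 230.5 and 234 CPM in the MLL4WT libraries (edgeR adjusted p = 0.832), so its whole-gene RNA does not check the labels. KMT2B, a relative that has also been called MLL4, fell to 67.1, 61.9 and 60.6 CPM in MLL4KO, against 94.1, 90.3 and 87.2 CPM in MLL4WT (edgeR adjusted p = 2.33e-05). CPM are read counts scaled to a common library total after TMM adjustment, and fold changes are MLL4KO over MLL4WT.

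The extracellular matrix is built of a basement membrane, in which laminin trimers and type IV collagen form sheets linked by proteoglycans, and of interstitial fibres of collagen and fibronectin. Epithelial cells make mainly basement membrane components, whereas fibroblasts make most of the fibrillar matrix. In EMT, transcription factors of the SNAI, ZEB and TWIST families repress epithelial genes such as E-cadherin, and cells gain N-cadherin, fibronectin and matrix-degrading enzymes. Carcinoma lines differ in how much of this programme they express.

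In MLL4KO cells the list did not move in a single direction. SPARC, which encodes a collagen-binding matricellular protein, fell 13.9-fold, and COL3A1, the type III collagen gene, fell 6.90-fold. The laminin genes LAMB3 and LAMA3 fell 3.47-fold and 2.89-fold, whereas LAMB1 rose 2.85-fold, and HSPG2 and FN1 rose 1.76-fold and 1.70-fold. Among the 8 EMT factors of the list, ZEB1 alone passed the test, and it rose 1.42-fold. At 0 counts or too low to test in both genotypes were 13 of the 43 genes, among them CDH2, TWIST1 and POSTN.

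Of the 43 genes, 30 had enough counts to be tested, 12 were counted but under the filter, and 1 had 0 counts in all 6 libraries. In a quasi-likelihood fit with edgeR, with p adjusted by Benjamini-Hochberg across 14543 tested genes, 9 of the 30 rose, 9 fell and 12 did not pass at an adjusted p of 0.05. The test thus called 60% of the members, where it called 41.4% of all tested genes, with 19.8% that rose and 21.6% that fell. Among the 24 members at 5 CPM or more in the higher genotype 17 were called (70.8%), where 47.1% of all tested genes at that level were. The median log2 fold change was 0.05 over the 30 members, against 0.00 over all tested genes, and 3 members rose and 5 fell by at least 1.5-fold, together 8 of 30, where 11.9% of all tested genes changed by that much (6.56% rose and 5.35% fell). By at least 2-fold, 1 member rose and 4 fell, where 2.72% of all tested genes rose and 2.25% fell. The genotypes did not overlap in 22 of the 30 members, where they did not overlap in 52.5% of all tested genes. These shares describe a list chosen with earlier results of these data known, and they were not tested. Library scaling left the members at 9 that rose and 9 that fell, while over all genes it turned 2885 that rose and 3136 that fell into 3706 and 2394 with total counts alone, and into 3561 and 2475 with upper quartile factors.

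**Figure D1:**
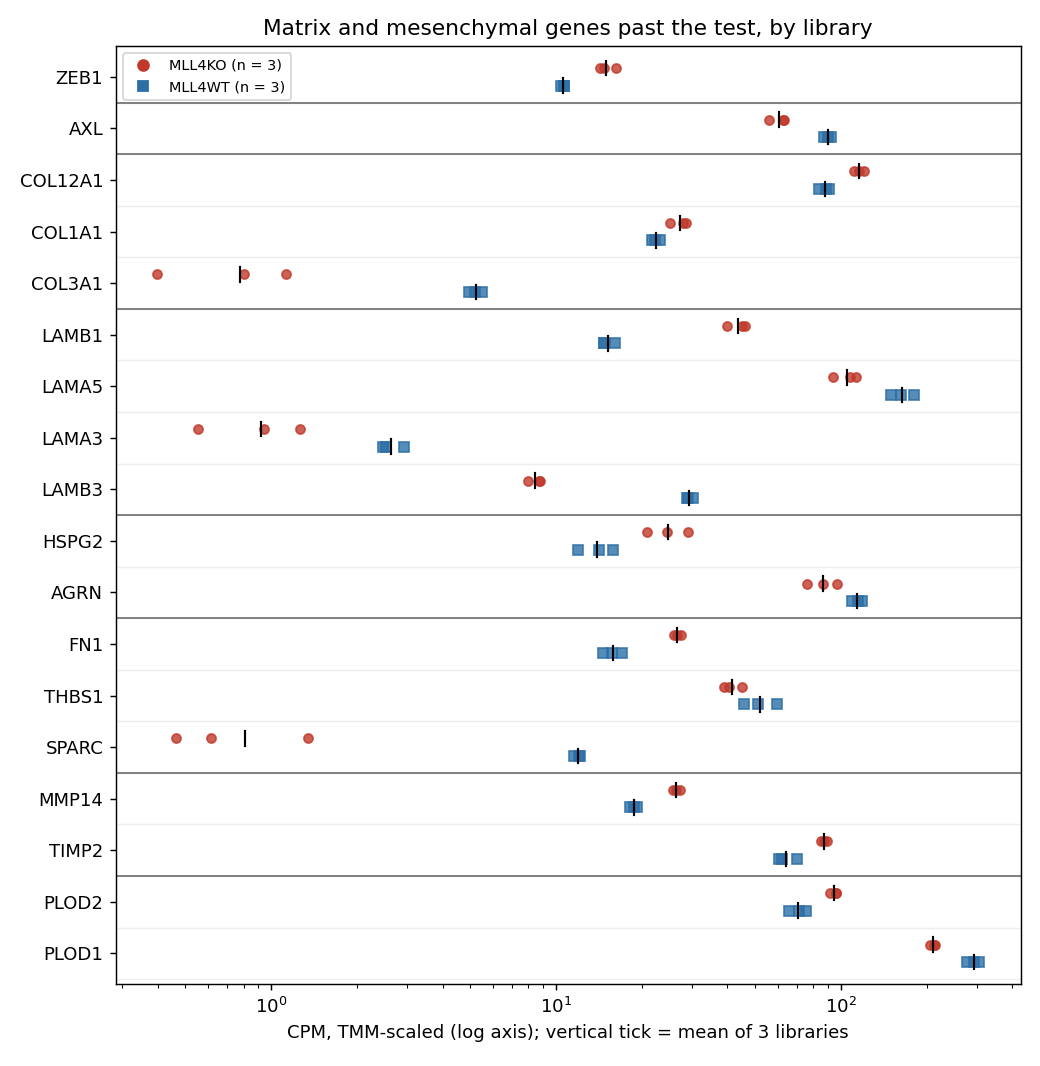
CPM of each called gene (log axis) in the 3 MLL4KO libraries (red circles) and the 3 MLL4WT libraries (blue squares), with a vertical tick at each mean and lines between the roles. In all 18 genes, shown because they passed the test, the red and blue points do not overlap. The genotypes did not overlap in 52.5% of all tested genes. The widest gaps are those of SPARC (0.465 to 1.34 CPM in MLL4KO, 11.5 to 12.2 CPM in MLL4WT) and COL3A1.

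**Figure D2:**
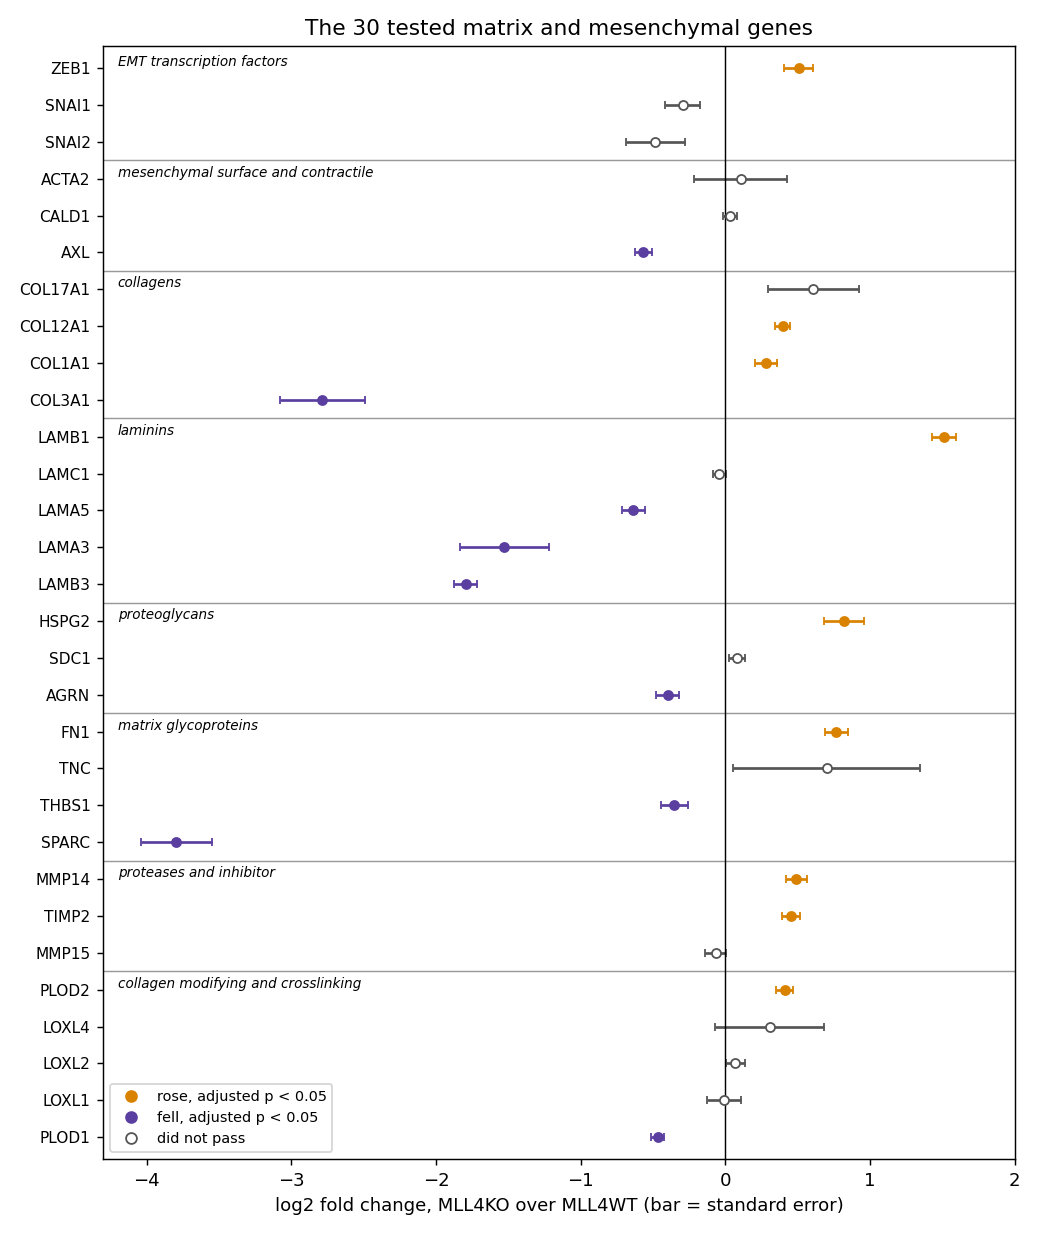
Log2 fold change of MLL4KO over MLL4WT for the 30 tested genes, grouped by role, with standard errors as bars; filled points passed the test and open points did not. Rises and falls stand side by side within collagens, laminins, proteoglycans, glycoproteins and modifying enzymes, and the falls of SPARC and COL3A1 reach farther than any rise.

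Column names held a code with the form of a sequencing flow cell, which MLL4KO replicate 1 shared with MLL4WT replicate 3, and MLL4KO replicates 2 and 3 with MLL4WT replicate 2, while MLL4WT replicate 1 had a code of its own. Since the genotypes do not overlap in any of the 18 called members, their direction within a shared code is fixed, and the sizes within the codes are given as a description. SPARC differed by -3.16 and -4.41 on the log2 scale within the first and second code, COL3A1 by -3.79 and -2.35, LAMB3 by -1.73 and -1.86, LAMA3 by -1.63 and -1.44, LAMB1 by 1.60 and 1.41, HSPG2 by 0.62 and 1.06, FN1 by 0.72 and 0.88 and ZEB1 by 0.44 and 0.54. These values rest on 1 or 2 libraries a genotype and carry no test.

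Among the EMT transcription factors, 3 of 8 genes were tested, and 1 rose, where 19.8% of all tested genes rose. ZEB1 (chromosome 10, 31318495 to 31529814, ENSG00000148516), a zinc finger repressor of epithelial genes, was at 14.2, 16.2 and 14.7 CPM in the MLL4KO libraries and at 10.7, 10.6 and 10.5 CPM in the MLL4WT libraries. All MLL4KO values lay above all MLL4WT values, and the log2 fold change was 0.51 ± 0.10 (standard error, edgeR adjusted p = 0.00137). ZEB1-AS1, an antisense gene whose exons overlap those of ZEB1, held 262 counts over the 6 libraries beside 1179 of ZEB1, and the labels do not state that reads were assigned by strand.

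SNAI1, which encodes the zinc finger repressor Snail, was at 12.1, 12.4 and 14.4 CPM in MLL4KO and at 19.2, 14.5 and 15.1 CPM in MLL4WT. The MLL4KO libraries were the lower ones without overlap, but the difference did not pass the test (log2 -0.30 ± 0.12, edgeR adjusted p = 0.0631), and over 17 alternative fits its adjusted p lay between 0.0374, with no filter on low counts, and 0.340, with GC and length trends removed (log2 -0.14). SNAI2, which encodes the related repressor Slug, was at 2.19, 2.65 and 2.46 CPM in MLL4KO and at 3.12, 3.16 and 3.79 CPM in MLL4WT, again without overlap and short of the threshold (log2 -0.48 ± 0.20, edgeR adjusted p = 0.0748), with an adjusted p between 0.0489, with limma-voom, and 0.414 over the same fits. ZEB1 therefore stood higher and both SNAI genes stood lower in the MLL4KO libraries, and of these 3 differences that of ZEB1 passed.

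The other 5 factors were near the limit of detection. FOXC2, a forkhead factor of mesenchymal tissues, had 7, 2 and 4 counts in MLL4KO and 2, 0 and 0 counts in MLL4WT, a ratio of 4.90 with an exact 95% counting interval of 1.11 to 44.7. ZEB2, the paralog of ZEB1, had 4 counts over the MLL4KO libraries and 5 over the MLL4WT libraries. The basic helix-loop-helix factor genes TWIST1 and TWIST2 had 3 and 0 counts over MLL4KO and 1 and 1 over MLL4WT, and PRRX1, a homeobox factor of mesenchyme, had 4 counts over MLL4KO and 0 over MLL4WT. In the shallowest library 3 counts, the floor for a count of 0, stand at 0.446 CPM. At this depth the counts of ZEB2, TWIST1, TWIST2 and PRRX1 are too few to set the genotypes apart. The counting interval of FOXC2 lies above 1, but FOXC2 was under the filter and did not pass with no filter (edgeR adjusted p = 0.271). Such floors and intervals cover counting error only.

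Of the other members under the filter, the cadherin genes CDH2 and CDH11 had 11 and 10 counts over the MLL4KO libraries and 7 and 3 over the MLL4WT libraries, and in each case MLL4KO replicate 1 held 9 of the MLL4KO counts. CDH2 encodes N-cadherin, whose gain is a usual sign of EMT. THY1, a surface glycoprotein of fibroblasts, had 11 counts over MLL4KO and 8 over MLL4WT, and COL5A1, a fibrillar collagen gene, had 9 and 7. The gelatinase gene MMP2 had 18 and 8 counts, the lysyl oxidase gene LOX had 15 and 11, and TGFBI, which encodes a TGF-beta-induced adhesion protein, had 4 and 3, in each case MLL4KO first. POSTN, the periostin gene, had 0 counts in every library. The 12 counted genes averaged at most 0.358 CPM in either genotype, and with no filter 0 of them passed edgeR's test and 0 had an unadjusted p under 0.05.

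**Figure D3:**
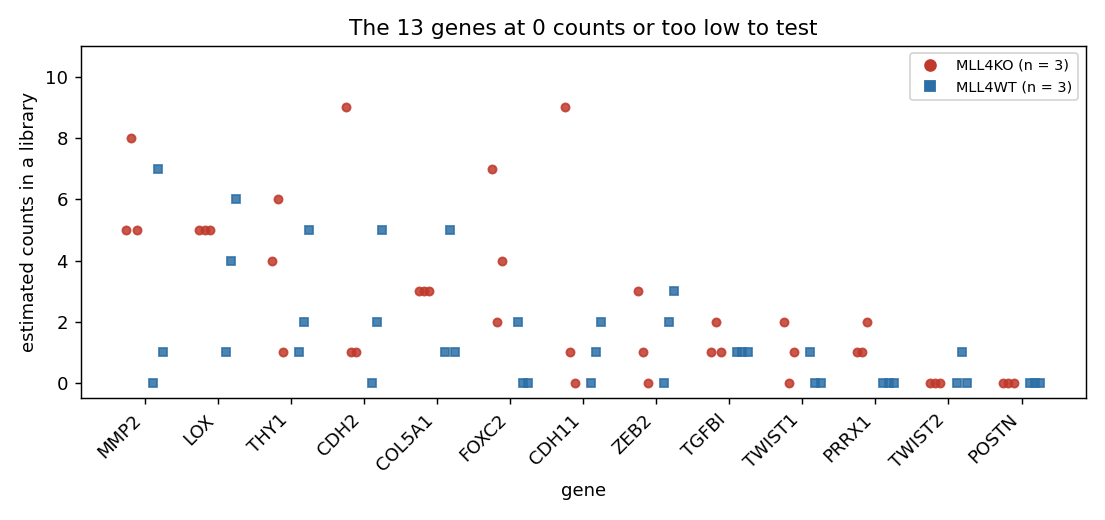
Estimated counts in each library for the 13 genes at 0 counts or too low to test, MLL4KO as red circles left of MLL4WT as blue squares, ordered by their total. No library holds more than 9 counts of any of these genes, and the 2 values of 9 are those of CDH2 and CDH11 in MLL4KO replicate 1.

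Among the mesenchymal surface and contractile genes, 1 of 3 tested members fell and none rose, where 21.6% of all tested genes fell. AXL, a receptor tyrosine kinase often found in mesenchymal carcinoma cells, fell 1.48-fold to 60.6 ± 4.05 CPM in MLL4KO, against 89.9 ± 2.36 CPM in MLL4WT (SD, n = 3 each, edgeR adjusted p = 1.29e-05). CALD1, the actin-binding caldesmon gene, was abundant at 144 ± 3.53 CPM in MLL4KO and 140.4 ± 5.93 CPM in MLL4WT, a log2 difference of 0.03 ± 0.05 (edgeR adjusted p = 0.659). ACTA2, smooth muscle actin, was at 1.45 ± 0.205 CPM in MLL4KO and 1.28 ± 0.498 CPM in MLL4WT (log2 0.11 ± 0.32, edgeR adjusted p = 0.817). Exons of FAS on the other strand overlap those of ACTA2.

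Collagen genes split, with 2 of 4 tested members higher and 1 lower, where 19.8% of all tested genes rose and 21.6% fell. COL3A1 (chromosome 2, 188974320 to 189012746, ENSG00000168542), whose product forms fibrils with type I collagen, was at 0.398, 0.801 and 1.13 CPM in the MLL4KO libraries and at 5.20, 4.94 and 5.51 CPM in the MLL4WT libraries. The lowest MLL4WT value was several times the highest MLL4KO value, from 38 counts over the MLL4KO libraries and 203 over the MLL4WT libraries (log2 -2.79 ± 0.29, edgeR adjusted p = 1.57e-05). COL1A1, which encodes the alpha-1 chain of type I collagen, rose 1.22-fold to 27.3 ± 1.89 CPM in MLL4KO, against 22.4 ± 0.677 CPM in MLL4WT (edgeR adjusted p = 0.0106). COL12A1, a fibril-associated collagen, rose 1.32-fold to 116 ± 4.96 CPM in MLL4KO, against 87.7 ± 3.71 CPM in MLL4WT (edgeR adjusted p = 0.000101). COL17A1, the transmembrane collagen of hemidesmosomes, was low at 1.24 ± 0.133 CPM in MLL4KO and 0.820 ± 0.0725 CPM in MLL4WT, without overlap (log2 0.61 ± 0.31, edgeR adjusted p = 0.144). The partner chain of COL1A1 in type I collagen, COL1A2, was at 0.681 ± 0.333 CPM in MLL4KO and 0.808 ± 0.671 CPM in MLL4WT (edgeR adjusted p = 0.798).

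Laminins are trimers of an alpha, a beta and a gamma chain. Of the 5 member chains 4 were called, where 41.4% of all tested genes were called. LAMB3 (chromosome 1, 209614870 to 209652466, ENSG00000196878), the beta chain of the laminin that anchors epithelia at hemidesmosomes, was at 8.75, 7.95 and 8.71 CPM in the MLL4KO libraries and at 28.8, 30.3 and 29.01 CPM in the MLL4WT libraries. The genotypes lay far apart, with every MLL4KO value lower (log2 -1.79 ± 0.08, edgeR adjusted p = 1.59e-08). LAMA3 (chromosome 18, 23689443 to 23956222, ENSG00000053747), its alpha chain, was at 0.945, 0.555 and 1.26 CPM in MLL4KO and at 2.53, 2.47 and 2.93 CPM in MLL4WT, also without overlap (log2 -1.53 ± 0.31, edgeR adjusted p = 0.00180). Both chains were therefore lower in MLL4KO, by 3.47-fold and 2.89-fold.

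LAMB1 (chromosome 7, 107923799 to 108003255, ENSG00000091136), a beta chain of broadly expressed laminins, was at 44.9, 39.7 and 46.0 CPM in the MLL4KO libraries and at 14.7, 16.1 and 14.8 CPM in the MLL4WT libraries. All MLL4KO libraries lay far above all MLL4WT libraries (log2 1.51 ± 0.08, edgeR adjusted p = 7.43e-08). LAMA5 (chromosome 20, 62307955 to 62367312, ENSG00000130702), an alpha chain that pairs with LAMB1 and LAMC1, moved the other way, at 113, 108 and 93.8 CPM in MLL4KO and 180.1, 149.8 and 163 CPM in MLL4WT, without overlap (log2 -0.64 ± 0.08, edgeR adjusted p = 0.000128). LAMC1, the gamma chain common to most laminins, was at 165 ± 4.70 CPM in MLL4KO and 169.6 ± 1.45 CPM in MLL4WT (log2 -0.04 ± 0.04, edgeR adjusted p = 0.479). Exons of ADRM1 overlap LAMA5 and exons of DLD overlap LAMB1 on the opposite strand, with 20064 and 13105 counts of their own over the 6 libraries, and how reads were shared between such neighbours is not stated.

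To set chains side by side, CPM were divided by the annotated exon length, a measure chosen after the values were seen. Per kilobase, LAMB1 was at 5.35 ± 0.414 CPM in MLL4KO and 1.87 ± 0.0981 CPM in MLL4WT, while LAMB3 was at 1.81 ± 0.0965 CPM in MLL4KO and 6.27 ± 0.174 CPM in MLL4WT, so the order of these chains was turned. Of the summed level of LAMB1, LAMB2 and LAMB3 per kilobase, LAMB1 made up 31.2%, 30.1% and 33.3% in the MLL4KO libraries and 8.88%, 10.5% and 9.31% in the MLL4WT libraries. LAMB3 made up 10.6%, 10.5% and 10.9% in the MLL4KO libraries and 30.2%, 34.2% and 31.8% in the MLL4WT libraries. LAMB2, a beta chain outside the list, made up 57.8% ± 1.86 in MLL4KO and 58.4% ± 2.83 in MLL4WT (SD, n = 3 each). The shares of LAMB1 and LAMB3 did not overlap between genotypes, with an exact two-sided permutation p of 0.1 for each, the smallest that 3 against 3 libraries allow. Among alpha chains LAMA5 made up 92.2% ± 1.30 in MLL4KO and 89.8% ± 0.805 in MLL4WT, with the same exact permutation p of 0.1. Its level per kilobase was nonetheless lower in MLL4KO, at 7.34 CPM against 11.5 CPM in MLL4WT. The smaller alpha chains LAMA2 and LAMA3 were lower as well, at 0.548 and 0.0627 CPM per kilobase in MLL4KO and 1.12 and 0.180 in MLL4WT.

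**Figure D4:**
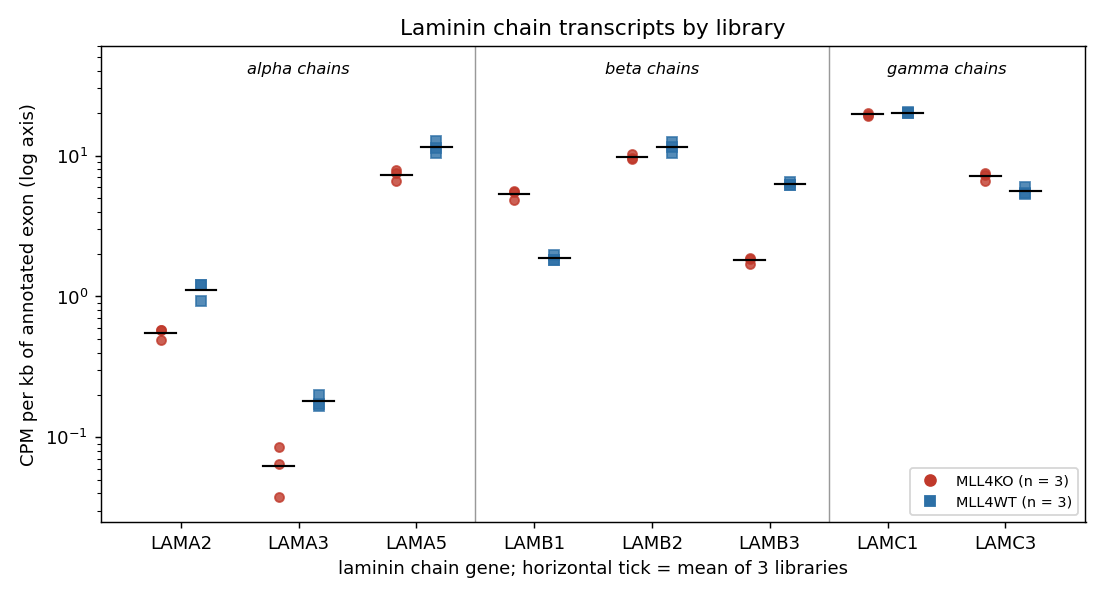
CPM per kilobase of annotated exon (log axis) for 8 laminin chain genes, MLL4KO libraries as red circles left of MLL4WT libraries as blue squares, with a tick at each mean. LAMB1 (5.35 in MLL4KO, 1.87 in MLL4WT) and LAMB3 (1.81 in MLL4KO, 6.27 in MLL4WT) exchange their order, and LAMC1 stays near 20 in both genotypes.

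The promoters of the laminin genes that moved in opposite directions, and that of SPARC, are shown because these members carry the largest changes with a sequence at hand. The windows run from 250 bases before to 50 bases after the RefSeq start on GRCh38.p14, 5′ to 3′ on the gene's strand, for LAMB3 at chr1:209652376-209652675 (minus strand, the first of 3 starts listed), LAMA3 at chr18:23872770-23873069 (plus strand, inside the annotated gene), LAMB1 at chr7:108003112-108003411 (minus strand) and SPARC at chr5:151686866-151687165 (minus strand). Capitals mark matches on either strand to the E-box CAGGTG, to which SNAI and ZEB proteins can bind, the AP-1 motif TGANTCA, the TATA box TATAAA and the GC box GGGCGG.
LAMB3: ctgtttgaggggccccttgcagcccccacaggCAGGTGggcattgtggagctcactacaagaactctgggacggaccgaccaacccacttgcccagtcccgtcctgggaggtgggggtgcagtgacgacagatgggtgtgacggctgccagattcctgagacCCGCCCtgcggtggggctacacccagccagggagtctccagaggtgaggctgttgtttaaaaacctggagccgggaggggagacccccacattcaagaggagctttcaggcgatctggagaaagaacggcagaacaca
LAMA3: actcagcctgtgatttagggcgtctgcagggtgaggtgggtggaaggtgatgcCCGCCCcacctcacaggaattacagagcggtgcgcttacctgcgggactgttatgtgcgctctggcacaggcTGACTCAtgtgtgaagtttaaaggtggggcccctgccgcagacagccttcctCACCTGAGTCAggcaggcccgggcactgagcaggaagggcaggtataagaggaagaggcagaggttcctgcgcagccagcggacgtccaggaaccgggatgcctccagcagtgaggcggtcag
LAMB1: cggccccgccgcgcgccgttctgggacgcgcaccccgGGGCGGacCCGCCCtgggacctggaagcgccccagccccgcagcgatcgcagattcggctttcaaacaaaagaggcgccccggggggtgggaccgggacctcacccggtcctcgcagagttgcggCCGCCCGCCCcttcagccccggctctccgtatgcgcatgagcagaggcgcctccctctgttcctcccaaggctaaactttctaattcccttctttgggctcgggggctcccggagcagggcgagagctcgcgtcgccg
SPARC: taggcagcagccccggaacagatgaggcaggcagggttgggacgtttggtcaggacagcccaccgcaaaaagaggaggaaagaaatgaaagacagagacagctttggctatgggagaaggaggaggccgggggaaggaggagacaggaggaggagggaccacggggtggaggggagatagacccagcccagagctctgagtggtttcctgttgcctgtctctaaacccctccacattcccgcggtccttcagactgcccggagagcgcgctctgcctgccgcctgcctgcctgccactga

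LAMB3 held the E-box at -218 and a GC box at -88 from the start. LAMA3 held an E-box at -73 that shares bases with an AP-1 motif at -69, a further AP-1 motif at -125 and a GC box at -197. LAMB1 held GC boxes at -213, -205, -88 and -84, the last pair overlapping, and none of the other motifs, and SPARC held none of the 4 motifs. A match is a run of letters and not a bound site, and these windows do not show which start HCT116 cells use. In the promoters of 10659 tested genes, with the first listed start of each, the E-box occurred in 18.6%, the AP-1 motif in 4.475%, the TATA box in 5.27% and the GC box in 71.2%.

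Promoters were matched for 31 of the 43 genes. The E-box occurred in 4 of 7 members that fell (LAMB3, LAMA3, LAMA5 and AXL), in 1 of 7 that rose (ZEB1) and in 3 of 9 that did not pass. CpG dinucleotides numbered 10 in LAMB3, 13 in LAMA3 and 11 in SPARC, against 35 in LAMB1. The ratio of observed to expected CpG had a median of 0.921 in the 7 members that rose and 0.467 in the 7 that fell, where the promoters of tested genes had 0.842. Exceptions stood on both sides, with 0.442 in MMP14 and 0.682 in ZEB1, which rose. Among those that fell, LAMA5 was at 0.805, THBS1 at 0.801 and PLOD1 at 0.721. These are descriptions of few promoters, with no test.

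The proteoglycans of basement membrane and cell surface differed in direction. HSPG2 (chromosome 1, 21822245 to 21937297, ENSG00000142798), which encodes perlecan, a heparan sulphate proteoglycan of basement membranes, was at 24.5, 28.96 and 20.8 CPM in the MLL4KO libraries and at 14.1, 11.9 and 15.9 CPM in the MLL4WT libraries. The libraries did not overlap, though they varied by several CPM within each genotype (log2 0.82 ± 0.14, edgeR adjusted p = 0.00103). AGRN, which encodes agrin, another basement membrane proteoglycan, fell 1.32-fold to 86.5 ± 10.6 CPM in MLL4KO, against 114 ± 4.57 CPM in MLL4WT (edgeR adjusted p = 0.00224), and without MLL4WT replicate 1 the call was lost (log2 -0.38, adjusted p = 0.0775). SDC1, the epithelial syndecan gene, was at 48.8 ± 1.10 CPM in MLL4KO and 46.3 ± 0.648 CPM in MLL4WT (log2 0.08 ± 0.06, edgeR adjusted p = 0.273), and over the alternative fits its adjusted p lay between 0.00945, once trends with GC content and length were taken out (log2 0.20), and 0.594.

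Among matrix glycoproteins, SPARC (chromosome 5, 151661096 to 151687165, ENSG00000113140) was at 1.34, 0.616 and 0.465 CPM in the MLL4KO libraries and at 12.2, 11.5 and 12.0 CPM in the MLL4WT libraries. It kept 44 counts over the MLL4KO libraries, 27 of them in replicate 1, against 459 over the MLL4WT libraries (log2 -3.80 ± 0.25, edgeR adjusted p = 4.2e-07). Without MLL4KO replicate 1 the fall was 21.4-fold (adjusted p = 2.06e-06), against 13.9-fold with it. FN1 (chromosome 2, 215360440 to 215436172, ENSG00000115414), which encodes fibronectin, the main cell-binding glycoprotein of interstitial matrix, was at 25.9, 27.4 and 26.5 CPM in MLL4KO and at 17.1, 14.6 and 15.7 CPM in MLL4WT. The MLL4KO libraries were tightly grouped above the MLL4WT libraries (log2 0.77 ± 0.08, edgeR adjusted p = 1.22e-05).

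THBS1, the thrombospondin gene, whose product activates latent TGF-beta, fell 1.28-fold to 41.5 ± 3.16 CPM in MLL4KO, against 52.2 ± 7.16 CPM in MLL4WT (edgeR adjusted p = 0.0100). Its call was lost without MLL4KO replicate 1, MLL4KO replicate 2 or MLL4WT replicate 2 (adjusted p = 0.0639, 0.0541 and 0.0536). TNC, the tenascin gene, was low and variable, at 0.348, 1.42 and 0.931 CPM in MLL4KO and 0.149, 1.03 and 0.287 CPM in MLL4WT (edgeR adjusted p = 0.421). The glycoprotein genes thus held the steepest fall of the list beside the rise of FN1.

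Of the protease genes and their inhibitor, 2 of 3 tested members rose and none fell, where 19.8% of all tested genes rose, and in the wider list of proteases and inhibitors 3 of 11 tested genes rose and 2 fell. MMP14, a membrane-anchored metalloproteinase that cleaves collagen and activates the MMP2 proenzyme, rose 1.41-fold to 26.5 ± 0.789 CPM in MLL4KO, against 18.7 ± 0.560 CPM in MLL4WT (edgeR adjusted p = 0.00017). TIMP2, which inhibits metalloproteinases and also takes part in MMP2 activation, rose 1.37-fold to 87.2 ± 2.37 CPM in MLL4KO, against 64.4 ± 5.32 CPM in MLL4WT (edgeR adjusted p = 9.83e-05). MMP15, a relative of MMP14, was at 76.0 ± 2.29 CPM in MLL4KO and 80.6 ± 9.71 CPM in MLL4WT (log2 -0.07 ± 0.07, edgeR adjusted p = 0.498). The transcript of MMP2 itself stayed under the filter, as given above.

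The lysyl hydroxylase genes PLOD1 and PLOD2, which encode enzymes that prepare collagen lysines for crosslinks, moved in opposite directions. PLOD1 fell 1.38-fold to 211 ± 4.02 CPM in MLL4KO, against 292 ± 14.7 CPM in MLL4WT (edgeR adjusted p = 1.22e-05), and PLOD2, whose product acts on collagen telopeptides, rose 1.33-fold to 94.6 ± 2.75 CPM in MLL4KO, against 70.6 ± 4.88 CPM in MLL4WT (edgeR adjusted p = 0.000142). The 3 tested member genes of the lysyl oxidases, which form the crosslinks, did not pass, and LOX was under the filter. LOXL3, a lysyl oxidase gene outside the list, fell 1.98-fold (edgeR adjusted p = 7.31e-05). LOXL2 was at 33.3 ± 1.15 CPM in MLL4KO and 31.9 ± 1.56 CPM in MLL4WT (log2 0.07 ± 0.07), LOXL1 at 7.89 ± 0.489 and 8.002 ± 0.474 CPM (log2 -0.01 ± 0.12), and LOXL4 at 0.808 ± 0.211 and 0.660 ± 0.100 CPM (log2 0.31 ± 0.38), MLL4KO first, with edgeR adjusted p of 0.444, 0.990 and 0.550. LOXL1 has an antisense gene, LOXL1-AS1, with 807 counts beside its own 715, and LOXL2 overlaps ENTPD4 with 5028 counts beside its 2945.

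Further matrix and EMT genes were taken from a list of 98 by the same roles. Of its 63 tested genes 14 rose, 15 fell and 34 did not pass, a call for 46.0% at a median log2 of 0.05, where 41.4% of all tested genes were called. Among its laminin genes LAMC3 rose 1.29-fold, and LAMA2 and LAMB2 fell (edgeR adjusted p between 0.000123 and 0.0201), LAMB2 being named after its value was seen. Among collagens the type VI chain genes COL6A1 and COL6A2, both on chromosome 21, rose 1.69-fold and 1.72-fold, and COL9A3 fell 1.40-fold (edgeR adjusted p between 1.15e-07 and 0.000281). COL6A3, a type VI chain gene on chromosome 2, was lower in level and rose 2.02-fold (edgeR adjusted p = 0.000527). It was at 8.66 ± 0.988 CPM in MLL4KO and 4.11 ± 1.01 CPM in MLL4WT, and was named after its value was seen. Among cell surface and matrix proteoglycans, GPC4, a glypican, rose 1.87-fold and the syndecan gene SDC3 rose 1.61-fold, while VCAN, which encodes versican, fell 1.98-fold and SDC4 fell 1.41-fold (edgeR adjusted p between 8.14e-08 and 3.8e-05). VCAN was at 122 ± 3.55 CPM in MLL4KO and 240.1 ± 16.1 CPM in MLL4WT.

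Within the same list, P4HB, a subunit of collagen prolyl hydroxylase and a general disulphide isomerase, fell 1.60-fold to 789 ± 18.6 CPM in MLL4KO, against 1267 ± 18.01 CPM in MLL4WT, and the lysyl hydroxylase gene PLOD3 fell 1.45-fold (edgeR adjusted p = 2.23e-07 and 6.62e-06). In collagen modification 4 of 14 tested genes were called (28.6%), all of them lower, where 41.4% of all tested genes were called and 21.6% fell. ECM1, a secreted matrix protein, fell 2.51-fold to 2.74 ± 0.299 CPM in MLL4KO, against 7.0 ± 1.61 CPM in MLL4WT (edgeR adjusted p = 0.00022). The protease gene ADAM9 and the inhibitor gene TIMP1 fell 1.69-fold and 1.36-fold (edgeR adjusted p = 2.16e-05 and 0.00241). MMP11 and ADAM19 rose 1.51-fold and 1.17-fold (edgeR adjusted p = 0.0273 and 0.0310), and each of these calls was lost in 5 of 17 alternative fits. Among further EMT factors HMGA2 fell 1.30-fold and FOXC1 rose 1.33-fold (edgeR adjusted p = 7.59e-05 and 0.00355).

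Markers of the line and of other cell types were read beside these genes. The 11 colorectal epithelial markers summed to between 1082 and 1106 CPM in the MLL4KO libraries and between 1608 and 1671 CPM in the MLL4WT libraries. Of 6 tested 4 fell and none rose, where 21.6% of all tested genes fell. Those that fell, KRT8, KRT18, EPCAM and KRT19, made up most of the sum. CDX2 was at 30.5 ± 1.94 CPM in MLL4KO and 28.7 ± 2.25 CPM in MLL4WT (log2 0.10, edgeR adjusted p = 0.341). CDX1 had 0 counts and CDH17 1 count. CDH1, which encodes E-cadherin and is a classical target of ZEB1, was at 11.3 ± 0.725 CPM in MLL4KO and 10.9 ± 0.932 CPM in MLL4WT (log2 0.04, edgeR adjusted p = 0.864). The 7 fibroblast markers summed to between 5.27 and 6.10 CPM in MLL4KO and between 2.53 and 5.42 CPM in MLL4WT. Of 2 tested, 1 rose, where 19.8% of all tested genes rose. It was PDGFRB, at 4.57 ± 0.278 CPM in MLL4KO and 2.76 ± 0.848 CPM in MLL4WT (edgeR adjusted p = 0.0229, lost in 4 of 17 alternative fits). DCN and LUM had 3 and 7 counts over MLL4KO and 4 and 8 over MLL4WT, and PDPN had 0. Endothelial markers summed to between 3.23 and 3.94 CPM in MLL4KO and between 1.90 and 2.19 CPM in MLL4WT, with 0 of 2 tested called, and the 5 blood markers to at most 1.66 CPM in any library. FAP had 1 count over MLL4KO and 0 over MLL4WT, PDGFRA 5 and 1, and COL1A2 34 and 30, so 5 of the 7 fibroblast markers had at most 8 counts in either genotype, and PDGFRB, at 236 counts over MLL4KO and 116 over MLL4WT, made up most of the sum. The part of these marker differences in the results above was not tested. In bulk RNA, fewer cells with a transcript and less of it per cell cannot be told apart.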

How the data were processed

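The authors deposited 1 table of expected counts, whole numbers with no normalisation, and its 6 value columns were all used. Per the submitters' processing notes Salmon 1.8.0, DESeq2 1.44.0 and hg38 were used, with no role or order given, and the annotation release is not stated. Libraries were made with a poly(A) selection and a kit that the labels' protocols do not describe as strand-keeping. Columns were matched to samples by library name, and the genotype came from the sample titles.

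A gene name table gave symbols for 55764 of the 59715 IDs, and coordinates and exon lengths were those of GENCODE release 29 on GRCh38, the build also called hg38. After the filterByExpr filter 14543 genes with 99.9% of counts remained. They were scaled by TMM and tested by robust quasi-likelihood in edgeR 4.0.16 (R 4.3.3), without covariates, on 4 residual degrees of freedom, with Benjamini-Hochberg adjustment across them. A standard error is the log2 fold change divided by the root of F. Promoters are RefSeq windows of 300 bases.

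The members, the list of 98 further genes and the markers were chosen with earlier results of these data known. Values per library are given for called members changed at least 1.5-fold, for FN1 and for EMT factors with at least 10 counts; of the further genes, at most 2 rises and 2 falls a role at 5 CPM or more are named, by smallest adjusted p, except that some are not reported here. COL1A2, COL6A3, LAMB2, LOXL3, CDH1 and the other marker genes are named outside that rule, after their values were seen.

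Alternatives were other scalings (DESeq2-type size factors, total counts, upper quartile), no filter and a stricter filter of 1 CPM in 3 libraries, the Wald test of DESeq2 1.42.0, voom of limma 3.58.1, a replicate block, a flow cell term, removal of GC and length trends, thinning to the shallowest library, and leaving out each library. Laminin shares with the length of the longest coding transcript were added after the data were seen.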

Additional observations from a re-analysis of the deposited data

How the results depend on the processing

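Under 17 alternative fits, 9 members rose in each of them, or 10 with GC and length trends removed, and between 8 and 10 fell. Of the 18 called members 16 stayed past the threshold in every fit and none changed direction; AGRN and THBS1 lost their calls without single libraries, as given above. With the replicate block 9 members rose and 9 fell, and over all genes 2689 rose and 3024 fell; same-numbered libraries shared only a number, with correlations of their deviations of 0.02, 0.03 and -0.01, and the block changed no call of a member. Among the further matrix genes, 14 rose with all libraries and between 9 and 20 when single libraries were left out, with 9 without MLL4KO replicate 2.

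Members that did not pass and lay near 0 changed sign in some fits, none of them past the threshold; the cause was not tested. LAMC1 came to 0.0200 with total counts alone and 0.0120 with upper quartile factors. LOXL1 came to 0.0529 and 0.0448 in these fits, 0.000941 with no filter, 0.00876 with the flow cell term, 0.00726 when thinned and 0.125 with GC and length trends removed. CALD1 came to -0.0073 with the flow cell term and -0.0783 with GC and length trends removed, and MMP15 to 0.0236 and 0.0573 in these fits. Without single libraries LOXL1 ranged between -0.0600 and 0.0371, MMP15 between -0.112 and 0.0259 and ACTA2 between -0.0269 and 0.513. Depth limits the low members most: in MLL4WT replicate 1, 3 counts stand at 0.446 CPM. With the longest coding transcript as length, LAMB1 made up 35.3% of the beta chains in MLL4KO and 11.3% in MLL4WT, and LAMB3 9.21% and 29.3%.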
